A study of Homo sapiens and Mus musculus with 13 samples.

Results

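Cells recognise viral or misplaced cellular nucleic acid with a small set of receptors, and the 10 genes described here encode those receptors and the proteins that relay their signal. The sensors were cGAS (MB21D1), which detects DNA in the cytosol, RIG-I (DDX58) and MDA5 (IFIH1), which detect double-stranded RNA in the cytosol, and TLR3, which detects double-stranded RNA in endosomes. The adaptors were STING (TMEM173), which acts after cGAS, and MAVS, the mitochondrial protein that acts after RIG-I and MDA5. The kinases TBK1 and IKKε (IKBKE) phosphorylate the transcription factors IRF3 and IRF7, which then induce type I interferon. Interferon in turn induces many genes, and DDX58, IFIH1, TLR3 and IRF7 are themselves known interferon targets. TLR3 is not a cytosolic protein and is kept here because it signals to the same kinases.

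The genes were taken by symbol from a list made with earlier results of these data known. They were 10 of the 24523 symbols measured in human cells and the 10 mouse genes of the same names among 55228 in mouse tumors. All 10 had an entry in both tables, under the older human symbols MB21D1, TMEM173 and DDX58 and, in mouse, as Cgas, Tmem173 and Ddx58. Expression was given as FPKM, a count of sequenced fragments divided by the length of the gene and the size of the library. A gene was tested where its mean FPKM over a set of libraries was at least 0.5, which 10 members passed in tumors and 9 in cell lines, where TLR3 did not.

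The study asked what TRIM11, a ubiquitin E3 ligase, and KDM5C, a histone H3K4 demethylase, do in breast cancer. The human set was 7 libraries of MDA-MB-231, a mesenchymal breast cancer cell line that lacks estrogen receptor, and every line had received Cas9 and guide RNAs. The Control line carried a GFP guide. TRIM11-KD1 and TRIM11-KD2 carried TRIM11 guide 1 and guide 2, KDM5C-KD1 and KDM5C-KD2 carried KDM5C guide 1 and guide 2, and the double knockdown lines DKD1 and DKD2 both carried KDM5C guide 2, with TRIM11 guide 1 in DKD1 and guide 2 in DKD2. The mouse set was breast tumors of 3 Trim11+/+ and 3 Trim11+/- mice at 3 months of age on a hybrid C57BL/6N and FVB/N background. All 6 mice carried MMTV-PyVT, a viral oncogene under a promoter active mainly in mammary epithelium, and the Trim11+/- mice lacked exons 2 to 6 of 1 Trim11 allele in the whole body. Nothing in the labels says that lines of a knockdown came from separate cultures beyond their guides, so the spread between them may be technical.

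The targeted genes were followed in every library. KDM5C mRNA was 30.3 FPKM in Control, 29.8 and 28.4 in TRIM11-KD1 and KD2, 20.6 and 21.4 in KDM5C-KD1 and KD2, and 18.8 and 22.7 in DKD1 and DKD2, so all 4 lines with a KDM5C guide were below all 3 without. TRIM11 mRNA was 12.6 FPKM in Control and 13.6 and 14.2 in the KDM5C-KD lines. It was 13.4 and 16.1 FPKM in TRIM11-KD1 and DKD1, which carried guide 1, and 10.6 and 9.38 in TRIM11-KD2 and DKD2, which carried guide 2. The mRNA of the libraries labelled TRIM11-KD1 and DKD1 was thus not below Control, which says nothing of the protein, and the effects on DDX58, IFIH1 and IKBKE and the counts of members are also given without them. In tumors Trim11 was 35.8, 36.3 and 39.2 FPKM in Trim11+/+ and 24.0, 22.8 and 22.9 in Trim11+/-. Kdm5c was 29.5, 24.7 and 29.0 FPKM in Trim11+/+ and 24.5, 24.3 and 23.3 in Trim11+/-, a ratio of means of 0.868. The genotypes did not overlap for Kdm5c, which was so for 13.4% of all genes tested in tumors. The tumors held 8793199 to 11117125 reads, recovered from the FPKM values, and the cell lines 0.732 to 1.12 times the depth of Control. The cells expressed VIM at 1038 to 1309 FPKM and had ESR1 at 0 to 0.0234 and PGR at 0 in every line, and the tumors expressed the epithelial gene Epcam at 408 to 493 FPKM.

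**Figure D1:**
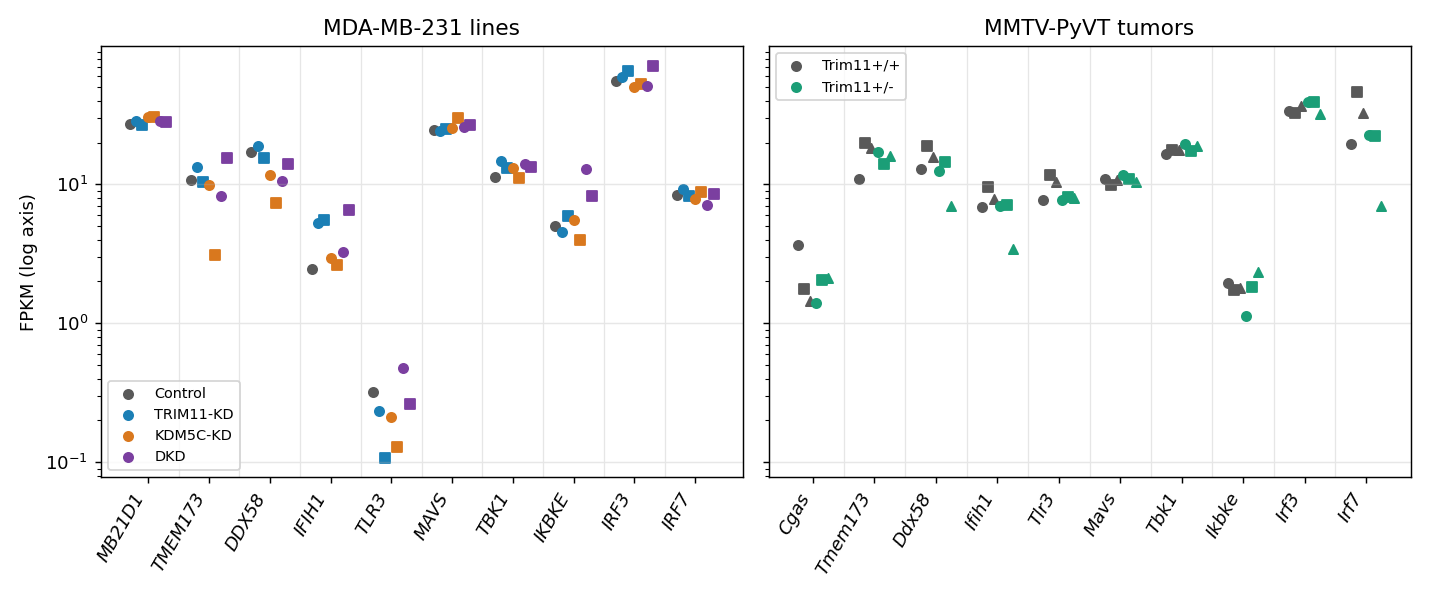
FPKM of the 10 sensing genes on a log axis in the 7 MDA-MB-231 libraries (left) and the 6 tumors (right), 1 point per library, with circles, squares and triangles for line or tumor 1, 2 and 3 of a group and a circle for Control. IRF3 and Irf3 had the highest mean of each set, while the highest single tumor value was that of Irf7 (46.6), and TLR3 had a mean of 0.248 FPKM in the lines and 8.95 in the tumors.

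In MDA-MB-231 cells the pathway was expressed from end to end except for TLR3. On the FPKM scale, which is per length, IRF3 had the highest mean, 58.0 FPKM, and its lowest library lay above the highest library of any other member. MB21D1 (mean 28.7) and MAVS (25.9) came next, and their ranges over the 7 libraries overlapped. DDX58 (13.6), TBK1 (13.0), TMEM173 (10.2), IRF7 (8.29), IKBKE (6.60) and IFIH1 (4.10) followed, and each of these overlapped with its neighbour in this order. TLR3 was last at 0.248 FPKM and apart from all the others. The transcript with the steadiest level was MB21D1, whose highest library was 1.14 times its lowest, while TMEM173 varied by 5.03 times, IKBKE by 3.28 times, IFIH1 by 2.67 times and DDX58 by 2.60 times.

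MB21D1, the sensor of cytosolic DNA, lies on chromosome 6 of hg19 from 74123238 to 74162020. It was 27.2 FPKM in Control, 28.7 and 26.9 in the TRIM11-KD lines, 30.5 and 30.5 in the KDM5C-KD lines, and 28.7 and 28.1 in the DKD lines. Both KDM5C-KD lines were the highest, and every library lay between 26.9 and 30.5 FPKM. In an additive model with a term for each guide, the effect of a KDM5C guide on MB21D1 was 0.08 (95% interval -0.11 to 0.28) and that of a TRIM11 guide -0.05 (-0.24 to 0.15), both on the log2(FPKM + 1) scale.

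DDX58, which encodes RIG-I, lies on chromosome 9 of hg19 from 32455300 to 32526206 on the minus strand. It was 17.0 FPKM in Control, 19.0 in TRIM11-KD1, 15.5 in TRIM11-KD2, 11.7 in KDM5C-KD1, 7.30 in KDM5C-KD2, 10.6 in DKD1 and 14.1 in DKD2. The 4 lines with a KDM5C guide were all below the 3 lines without one, with means of 10.9 ± 2.81 (SD, n = 4) and 17.2 ± 1.73 FPKM (SD, n = 3), a ratio of 0.636 (exact permutation test, two-sided p = 0.0571, which is the lowest that 4 against 3 allow). Libraries did not overlap between lines with and without a KDM5C guide, in either direction, for 10.7% of the 12636 genes tested, and for 2 of the 9 members tested, DDX58 and MAVS. The fitted effect on DDX58 was -0.60 (standard error 0.19, 95% interval -1.04 to -0.15), with an unadjusted limma p of 0.0150 and an adjusted p of 0.392. Leaving out each library moved this effect between -0.73 and -0.46, and without Control its unadjusted limma p was 0.113. Without TRIM11-KD1 and DKD1 the groups still did not overlap, but the effect was -0.52 with an unadjusted limma p of 0.0900 and an adjusted p of 0.767. In the GENCODE annotation of hg19 used here for positions, 43.2% of the exon bases of DDX58 also belong to another gene model on the same strand. Whether the annotation behind the deposited FPKM held that model is not known, so its part in these values cannot be told.

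IFIH1, which encodes MDA5, lies on chromosome 2 of hg19 from 163123584 to 163175194 on the minus strand. It was 2.45 FPKM in Control, 5.30 and 5.54 in the TRIM11-KD lines, 2.94 and 2.63 in the KDM5C-KD lines, 3.27 in DKD1 and 6.55 in DKD2. Every line with a TRIM11 guide was above every line without one, and DKD1 was close to the KDM5C-KD lines. The means were 5.17 ± 1.38 (SD, n = 4) with and 2.67 ± 0.244 FPKM (SD, n = 3) without a TRIM11 guide, a ratio of 1.93 (exact permutation test, two-sided p = 0.0571). This absence of overlap was met by 8.75% of all genes tested and by 2 of the 9 members, IFIH1 and TBK1. The fitted effect of a TRIM11 guide on IFIH1 was 0.71 (standard error 0.21, 95% interval 0.23 to 1.19), with an unadjusted limma p of 0.010 and an adjusted p of 0.448. Without TRIM11-KD1 and DKD1, the lines whose TRIM11 mRNA was not below Control, the effect was 0.97 and its adjusted p 0.125, and without Control it was 0.59 with an unadjusted limma p of 0.0753. The effect of a KDM5C guide on IFIH1 was -0.06 (95% interval -0.54 to 0.43).

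The promoters of both RNA sensors were read from RefSeq on GRCh38.p14, as the 250 bases before the transcription start in the direction of the gene, since both genes are known to be induced through interferon response elements. The motif searched was GAAA, any 2 bases and again GAAA, on either strand, a core that interferon regulatory factors and ISGF3 are known to bind, and matches are in capitals, where matches that overlap form 1 run. IFIH1 held 3 matches, which began 159, 153 and 21 bases before the start, and DDX58, listed there as RIGI, held none in this window. Other spacings were not searched, and the DDX58 sequence holds gaaacgaaa, where the gap between GAAA and GAAA is shorter.
IFIH1, chr2:162318685-162318934, minus strand: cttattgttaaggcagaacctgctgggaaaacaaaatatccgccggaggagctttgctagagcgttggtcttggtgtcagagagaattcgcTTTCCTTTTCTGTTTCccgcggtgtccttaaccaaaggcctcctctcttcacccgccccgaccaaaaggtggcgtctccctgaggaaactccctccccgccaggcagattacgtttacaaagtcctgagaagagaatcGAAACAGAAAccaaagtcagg
DDX58, chr9:32526197-32526446, minus strand: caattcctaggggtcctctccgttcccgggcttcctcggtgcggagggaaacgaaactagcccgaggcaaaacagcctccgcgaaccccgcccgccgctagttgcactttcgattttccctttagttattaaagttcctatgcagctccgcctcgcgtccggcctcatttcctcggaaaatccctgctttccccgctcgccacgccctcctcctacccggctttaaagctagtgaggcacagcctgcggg
RefSeq promoters were at hand for 6 members, DDX58, IFIH1, TLR3, MAVS, TBK1 and IKBKE. In the 250 bases before and 50 after the start, 2 of these 6 held the motif, IFIH1 and TLR3, the latter with a match that began 4 bases before the start, and 3.57% of all 35116 promoters did. A match is a run of letters and not a measured site.

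TLR3, on chromosome 4 of hg19 from 186990065 to 187009227, was measured with few fragments. It was 0.318 FPKM in Control, 0.234 and 0.108 in the TRIM11-KD lines, 0.211 and 0.128 in the KDM5C-KD lines, and 0.477 and 0.261 in the DKD lines. These values correspond to 5 to 22 fragments a library, the smallest whole numbers that fit the ratios between libraries. Multiples of them would fit as well, so the numbers are a minimum. Taken as they are, exact Poisson intervals were 9.9 to 27.2 for the 17 fragments of Control and 13.8 to 33.3 for the 22 of DKD1. They were 1.62 to 11.7 for the 5 of TRIM11-KD2 and of KDM5C-KD2, and they cover counting error only. The interval of DKD1 lay above that of TRIM11-KD2, at relative depths of 0.863 and 0.868. The lines with and without a guide overlapped for both guides.

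Between the adaptors, TMEM173 varied most from line to line and MAVS hardly at all. TMEM173, which encodes STING, lies on chromosome 5 of hg19 from 138855118 to 138862520. It was 10.7 FPKM in Control, 13.4 and 10.4 in the TRIM11-KD lines, 9.97 in KDM5C-KD1, 3.09 in KDM5C-KD2, 8.26 in DKD1 and 15.5 in DKD2. The low value was that of KDM5C-KD2 alone, and both DKD lines, which carried the same KDM5C guide, lay above it. The fitted effects were -0.35 (95% interval -1.25 to 0.54) for a KDM5C guide and 0.58 (-0.31 to 1.47) for a TRIM11 guide, and both intervals were wider than those of any other member for the same guide. With each library left out these effects lay between -0.64 and -0.05 and between 0.15 and 0.89. MAVS, on chromosome 20 from 3827446 to 3856770, was 24.5 FPKM in Control, 24.3 and 25.2 in the TRIM11-KD lines, 25.4 and 29.9 in the KDM5C-KD lines, and 25.7 and 26.5 in the DKD lines. The lines with a KDM5C guide were all above those without, but by a ratio of means of only 1.09, and the fitted effect was 0.11 (95% interval -0.11 to 0.33, limma adjusted p = 0.699).

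IKBKE was the member with the largest difference between the double knockdown and the other lines. It lies on chromosome 1 of hg19 from 206643819 to 206670222. It was 4.98 FPKM in Control, 4.55 and 5.94 in the TRIM11-KD lines, 5.53 and 3.95 in the KDM5C-KD lines, 13.0 in DKD1 and 8.30 in DKD2. Both DKD lines were thus above all 5 other libraries, whose values lay between 3.95 and 5.94. The share of all genes that separate DKD from the other libraries in this way was not counted. In the additive model the effect of a TRIM11 guide on IKBKE was 0.62 (limma adjusted p = 0.461). Lines with and without a TRIM11 guide overlapped, and the TRIM11-KD lines lay on either side of Control. IKBKE was lower in KDM5C-KD than in DKD on the log2(FPKM + 1) scale (effect -1.0, standard error 0.26, 95% interval -1.63 to -0.38, limma adjusted p = 0.375, with an unadjusted p of 0.00744) and differed by -0.88 between TRIM11-KD and DKD (95% interval -1.5 to -0.25, adjusted p = 0.700, with an unadjusted p of 0.0136). These comparisons share the DKD libraries. The term for both guides together beyond the sum of each was 0.95 (95% interval -0.04 to 1.94, adjusted p = 0.879, with an unadjusted p of 0.0572). With each library left out, the first difference lay between -1.3 and -0.71 and the second between -1.17 and -0.58, and the second had an unadjusted limma p of 0.0750 without DKD1 and of 0.0762 without TRIM11-KD1. Without both, the differences were -0.71 (unadjusted limma p of 0.0549, adjusted p = 0.528) and -0.42 (unadjusted limma p of 0.250), so that neither passed even before adjustment.

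The sequence before the start of IKBKE is shown because this gene had the largest fitted effect of the members between knockdowns. It held no match to the same motif in this window.
IKBKE, chr1:206470226-206470475 of GRCh38.p14, plus strand: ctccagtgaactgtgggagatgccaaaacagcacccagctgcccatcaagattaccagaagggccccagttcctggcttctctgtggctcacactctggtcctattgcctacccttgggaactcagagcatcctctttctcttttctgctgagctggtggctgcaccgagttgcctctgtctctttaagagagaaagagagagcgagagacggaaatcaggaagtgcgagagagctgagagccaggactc

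TBK1, the kinase close to IKKε in sequence and function, lies on chromosome 12 of hg19 from 64845870 to 64895894. It was 11.3 FPKM in Control, 14.8 and 13.2 in the TRIM11-KD lines, 13.1 and 11 in the KDM5C-KD lines, and 14 and 13.4 in the DKD lines. The 4 lines with a TRIM11 guide were above the 3 without by a ratio of means of 1.17, with the lowest at 13.2 and the highest of the others at 13.1. The fitted effect was 0.22 (95% interval -0.02 to 0.46, limma adjusted p = 0.498).

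Over all lines the transcription factors showed no separation by guide. IRF3, on chromosome 19 of hg19 from 50162826 to 50169132, was 55.9 FPKM in Control, 59.3 and 65.7 in the TRIM11-KD lines, 49.8 and 53.0 in the KDM5C-KD lines, and 51.1 and 71.7 in the DKD lines. The effect on IRF3 was -0.07 for a KDM5C guide and 0.20 for a TRIM11 guide (limma adjusted p = 0.864 and 0.593). With libraries left out the latter lay between 0.07 and 0.37. TRIM11-KD2 and DKD2 were above every line without a TRIM11 guide, so IRF3 did separate once TRIM11-KD1 and DKD1 were left out. The share of all genes that do so was not counted. In the same GENCODE annotation 19.3% of the exon bases of IRF3 overlap with BCL2L12 on the other strand. The libraries did not keep strand, so a part of its level may be reads of BCL2L12. IRF7, on chromosome 11 from 612553 to 615983, was 8.38 FPKM in Control, 9.33 and 8.19 in the TRIM11-KD lines, 7.79 and 8.76 in the KDM5C-KD lines, and 7.07 and 8.54 in the DKD lines. The effect on IRF7 was -0.10 for a KDM5C guide (95% interval -0.37 to 0.17) and -0.02 for a TRIM11 guide (-0.29 to 0.24).

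**Figure D2:**
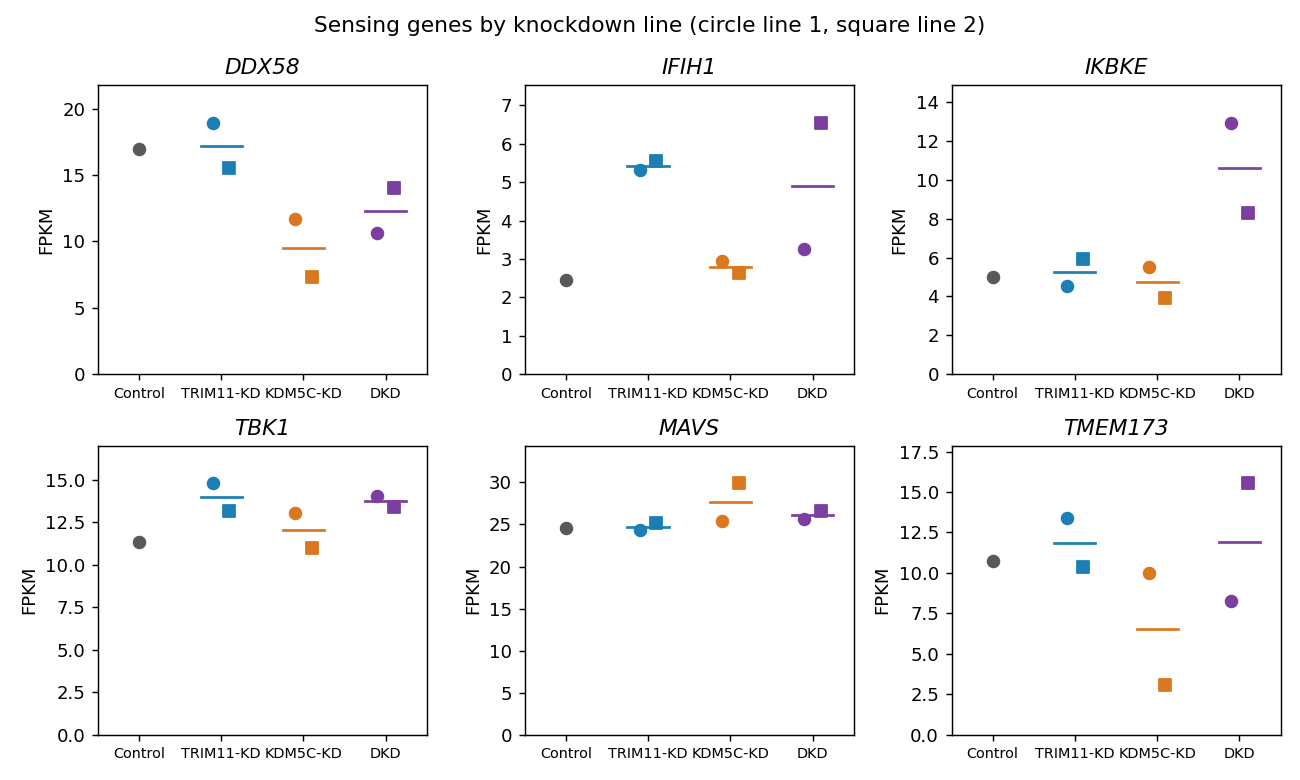
FPKM of 6 sensing genes in each MDA-MB-231 library by group, with circles for line 1, squares for line 2 and a horizontal line at the mean of a knockdown; Control is 1 library. DDX58 was at 7.30 to 14.1 FPKM in the lines with a KDM5C guide and at 15.5 to 19.0 in the others, IFIH1 was at 3.27 to 6.55 in the lines with a TRIM11 guide and at 2.45 to 2.94 in the others, and IKBKE was at 8.30 and 13.0 in DKD.

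Tested over all genes, no member passed an adjusted p of 0.05 in any contrast of the cell lines. That threshold was passed by 0.00791% of genes for a KDM5C guide, 0% for a TRIM11 guide, 0.0158% for their interaction, 0% for KDM5C-KD against DKD, 0.00792% for TRIM11-KD against DKD and 0.00792% for KDM5C-KD against TRIM11-KD. An unadjusted limma p under 0.05 was met for a KDM5C guide by 1 of 9 members (DDX58) and 11.1% of all genes, and for a TRIM11 guide by 2 members (IFIH1 and IKBKE) and 10.7% of all genes. Between KDM5C-KD and DKD it was met by 1 member (IKBKE) and 11.7% of genes, between TRIM11-KD and DKD by 1 member (IKBKE) and 7.03%, and between KDM5C-KD and TRIM11-KD by 2 members (DDX58 at -0.82 and IFIH1 at -0.77, both with an adjusted p of 0.494) and 9.88%. For the interaction it was met by no member and 5.49% of genes. A count of 1 in 9 members is a share of 11.1% and a count of 2 is 22.2%, so 1 gene decides how the members' share stands to that of all genes. With each library left out, the count of members was 1 to 2 for a KDM5C guide, 1 to 2 for a TRIM11 guide and 1 to 3 between KDM5C-KD and DKD. It was 0 to 2 between TRIM11-KD and DKD, with 0 without TRIM11-KD1 or DKD1, and 0 to 2 between KDM5C-KD and TRIM11-KD, with 0 without TRIM11-KD1 or KDM5C-KD2. Without both TRIM11-KD1 and DKD1 it was 0 for a KDM5C guide, 2 for a TRIM11 guide, 2 when KDM5C-KD was compared with DKD, 0 when TRIM11-KD was, and 1 for KDM5C-KD against TRIM11-KD. The median effect of the members was -0.06 for a KDM5C guide and 0.22 for a TRIM11 guide, where the medians of all genes were 0.00 and -0.01.

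Against the 1 Control library, a gene was counted as changed where the 2 lines of a knockdown each lay above it by 1.5 times or more, or each below it by as much, after 0.1 was added to each FPKM. There is no replicate of Control and so no p-value, and the 3 knockdowns share it. In TRIM11-KD, IFIH1 was higher and no member lower, where 2.8% of all genes were higher and 2.32% lower. In KDM5C-KD no member was changed, where 4.84% were higher and 3.68% lower. In DKD, IKBKE was higher and no member lower, where 5.38% were higher and 4.59% lower. The median log2 ratio of the members to Control was 0.06 in TRIM11-KD, -0.02 in KDM5C-KD and 0.09 in DKD, against -0.01, -0.01 and -0.01 for all genes.

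Other genes of the pathway were listed by role and read in the same way. No gene of any list passed an adjusted limma p of 0.05 for either guide. Among 14 other sensors and their cofactors, UNC93B1, which carries endosomal Toll-like receptors, was higher than Control in both DKD lines, with 18.3 FPKM in Control and 31.4 and 33.6 in DKD. Among 16 other adaptors and kinase partners, IKBKG, the regulatory subunit of the IKK complex, was higher in both KDM5C-KD lines, at 45.2 and 44.7 FPKM against 28.9. Among 12 other transcription factors, IRF5 was higher in KDM5C-KD (2.07 and 3.14 FPKM) and in DKD (2.13 and 3.18) than in Control (0.928). Of 17 negative regulators, ENPP1, which degrades the cGAS product cGAMP, was lower in KDM5C-KD, at 17.0 and 9.46 FPKM against 29.8, and so was RNF5, a ubiquitin ligase that acts on STING, at 37.3 and 38.4 against 63.4. NLRX1 was higher in DKD, at 4.30 and 4.36 FPKM against 2.71. None of the 6 interferon receptors and kinases was changed in any knockdown.

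The interferon targets in the lines did not move one way. Of 24 tested, MX1, an antiviral GTPase, was above Control (4.62 FPKM) in all 6 knockdown lines, between 7.14 and 11.5, and was counted as higher in all 3 knockdowns. IFIT2 and OAS2 were lower in KDM5C-KD, IFIT2 at 15.4 and 15.1 FPKM against 23.4 and OAS2 at 5.04 and 6.2 against 10.4. IFI44 was lower in DKD, at 2.90 and 2.73 FPKM against 5.22. CXCL10, with a mean of only 0.598 FPKM, was counted as lower in TRIM11-KD and KDM5C-KD. The median effect of the list was -0.26 for a KDM5C guide, with 18 of 24 below 0, and 0.14 for a TRIM11 guide, with 7 of 24 below 0. The share of all genes below 0 was not counted for either guide. Genes of the interferons themselves were at or near 0: of 12 listed, 9 were at 0 in every line, and their summed level was 0 to 1.41 FPKM. IFNL1, an interferon of the lambda type, made up most of the highest sums, at 0.816 FPKM in TRIM11-KD2 and 1.28 in DKD2 against 0.215 in TRIM11-KD1, 0.0927 in DKD1, 0.0818 in KDM5C-KD1 and 0 in Control and KDM5C-KD2. All 4 lines with a TRIM11 guide were above the 3 without, at a mean below the limit for testing. This absence of overlap was met by 8.75% of the genes tested. The values of DKD1 and KDM5C-KD1 differed by about as much as their relative depths, 0.863 and 0.976. Both may thus hold the same number of fragments, in which case these lines are tied.

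In tumors all 10 genes were expressed, and Irf3 again had the highest mean level. The order by mean FPKM was Irf3 (35.6), Irf7 (25.2), Tbk1 (17.9), Tmem173 (16.0), Ddx58 (13.6), Mavs (10.8), Tlr3 (8.95), Ifih1 (6.99), Cgas (2.07) and Ikbke (1.79), and each gene overlapped with the next over the 6 tumors. Irf7 varied most, by 6.70 times between its lowest and highest tumor, while Tbk1 varied by 1.18 times and Mavs by 1.19 times. A tumor holds epithelium, stroma and immune cells, and a lower level in bulk RNA cannot tell fewer cells of a type from less RNA per cell.

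Irf7 lies on chromosome 7 of mm10 from 141262706 to 141266481 on the minus strand. It was 19.5, 46.6 and 32.9 FPKM in Trim11+/+ tumors 1 to 3 and 22.7, 22.4 and 6.95 in Trim11+/- tumors 1 to 3, from 282 to 1788 reads a tumor. The genotypes overlapped, since Trim11+/+ tumor 1 lay below 2 of the Trim11+/- tumors. The means were 33.0 ± 13.5 (SD, n = 3) and 17.3 ± 9.0 FPKM (SD, n = 3), a ratio of 0.526 (two-sided exact permutation test, p = 0.3, where 3 against 3 cannot give less than 0.1). The log2 fold change was -0.97 (standard error 0.50, 95% interval -2.16 to 0.22, limma adjusted p = 0.736). It was -0.45 without Trim11+/- tumor 3 and lay between -1.29 and -0.68 when each other tumor was left out.

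Both RNA sensors of the cytosol had the same lowest tumor. Ddx58, on chromosome 4 of mm10 from 40203773 to 40239828, was 12.8, 18.8 and 15.7 FPKM in Trim11+/+ and 12.5, 14.5 and 7.01 in Trim11+/- tumors. Ifih1, on chromosome 2 from 62595798 to 62646255, was 6.93, 9.61 and 7.85 FPKM in Trim11+/+ and 7.0, 7.09 and 3.44 in Trim11+/- tumors. Their ratios of means were 0.718 and 0.719, the genotypes overlapped for both, and the adjusted limma p was 0.753 for Ddx58 and 0.756 for Ifih1. Without Trim11+/- tumor 3 the log2 fold change went from -0.48 to -0.20 for Ddx58 and from -0.46 to -0.17 for Ifih1. Tlr3, on chromosome 8 from 45395665 to 45411080, was 7.75, 11.7 and 10.4 FPKM in Trim11+/+ and 7.76, 8.17 and 7.95 in Trim11+/- tumors. Its ratio was 0.800 (adjusted p = 0.755), and Trim11+/+ tumor 1 was the lowest of all 6. Its log2 fold change of -0.27 was -0.42 without that tumor, with an unadjusted limma p of 0.00955 and an adjusted p of 0.648, and -0.16 without Trim11+/+ tumor 2.

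For both genes of the DNA arm the genotypes overlapped. Cgas was 3.64, 1.76 and 1.45 FPKM in Trim11+/+ and 1.40, 2.04 and 2.12 in Trim11+/- tumors, from 60 to 164 reads a tumor, and its log2 fold change was -0.16 (95% interval -0.80 to 0.48). The high value was that of Trim11+/+ tumor 1, and without it the log2 fold change was 0.12. Tmem173 was 10.9, 19.8 and 18.4 FPKM in Trim11+/+ and 17.2, 14 and 15.9 in Trim11+/- tumors, a log2 fold change of -0.02 (95% interval -0.55 to 0.52), which lay between -0.27 and 0.13 with each tumor left out.

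The shared adaptor, the kinases and Irf3 had ratios near 1. Mavs was 10.9, 9.85 and 10.8 FPKM in Trim11+/+ and 11.7, 11 and 10.5 in Trim11+/- tumors, a ratio of 1.05 (95% interval of the log2 fold change -0.17 to 0.30). Tbk1 was 16.5, 17.7 and 17.6 FPKM against 19.4, 17.5 and 18.9, a ratio of 1.08 (interval -0.11 to 0.32). Ikbke was 1.96, 1.75 and 1.80 FPKM against 1.13, 1.82 and 2.32, a ratio of 0.956 (interval -0.52 to 0.40). Irf3 was 33.8, 32.6 and 36.7 FPKM against 39.0, 39.4 and 32.1, a ratio of 1.07 (interval -0.18 to 0.36). Trim11+/+ and Trim11+/- tumors overlapped for each of these genes, and for Mavs, Tbk1 and Irf3 the intervals leave out a change of 1.5 times in either direction.

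**Figure D3:**
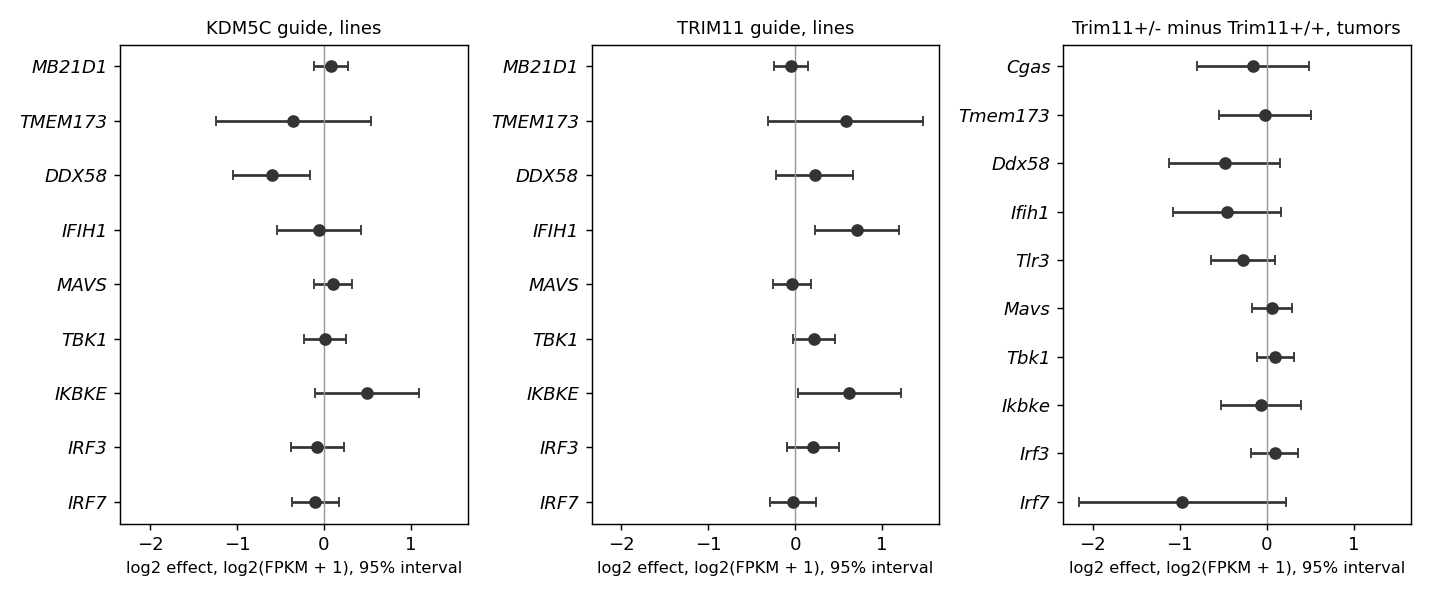
Fitted effects on the log2(FPKM + 1) scale with 95% intervals for the sensing genes tested, for a KDM5C guide and a TRIM11 guide in the MDA-MB-231 lines and for Trim11+/- minus Trim11+/+ in tumors. The intervals of DDX58 for a KDM5C guide and of IFIH1 and IKBKE for a TRIM11 guide lie off 0 before adjustment. For IKBKE the lines with and without a TRIM11 guide overlapped, and its highest values were those of DKD. The widest tumor interval is that of Irf7, from -2.16 to 0.22.

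In tumors no member combined a change of its mean FPKM by 1.5 times or more with an unadjusted limma p under 0.05, a rule met by 1.74% of the 17328 genes tested as higher and 1.87% as lower. No member had an unadjusted p under 0.05 at all (6.94% of genes did), none passed after adjustment (0.00577%), and none separated the genotypes without overlap (13.4%). With each tumor left out, the count at an unadjusted p under 0.05 stayed 0 except without Trim11+/+ tumor 1, where 1 member, Tlr3, was under it. The members had a median log2 fold change of -0.11, with 3 above and 7 below 0, and all genes had a median of 0.00.

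The other genes of the pathway were read in tumors by the same fold and p rule, and none of the genes named here passed after adjustment. Of 13 other transcription factors 1 met the rule as lower and 11 had a log2 fold change below 0, with a median of -0.21. Of 24 interferon targets 23 had a log2 fold change below 0, with a median of -0.66. The share of all genes with a log2 fold change below 0 was not counted. The fold and p rule was met as lower by 7 of the 24, where 1.87% of all genes met it. These 7 were Oas2, Oasl2, Isg15, Oas1a, Ifi44, Xaf1 and Bst2, of which Oas1a and Xaf1 overlapped between the genotypes. Effects with a tumor left out were read for the members only and not for these genes. Oas2, which makes the activator of RNase L, was 7.96, 15.7 and 15.1 FPKM in Trim11+/+ and 3.05, 3.91 and 2.07 in Trim11+/- tumors (log2 fold change -1.77, limma adjusted p = 0.400). Isg15, a ubiquitin-like protein, was 23.3, 59.9 and 46.6 FPKM against 18.9, 21.0 and 8.47. Zbp1, a sensor of Z-form nucleic acid, also met the rule, at 8.19, 16.9 and 14.7 FPKM against 7.09, 7.32 and 4.19. Usp18, a feedback inhibitor of the interferon receptor, met it at 3.44, 7.97 and 5.25 FPKM against 2.51, 3.06 and 1.10. The adjusted p of these 9 genes lay between 0.400 and 0.713. Trim11 itself, listed among 17 negative regulators, also met the rule.

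The summed level of the interferon targets was 316, 526 and 433 FPKM in Trim11+/+ and 299, 291 and 156 in Trim11+/- tumors. The genotypes did not overlap for this sum, and the lowest was again that of Trim11+/- tumor 3. Abundant genes weigh most in it, with Ifi27 at a mean of 118 FPKM, and Ifi27 overlapped between the genotypes. Of the 24 targets tested, 5 were lower without overlap (20.8%) and 0 higher, against 6.78% and 6.6% of all genes. Genes of the interferons were at or near 0, with 8 of 11 at 0 in every tumor and a sum of at most 0.341 FPKM. None of 16 other adaptors and kinase partners and none of 6 interferon receptors and kinases met the fold and p rule.

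Markers of immune cells, in which Irf7 and the RNA sensors are also expressed, were read beside these values. The sum of 7 macrophage markers was 370, 288 and 293 FPKM in Trim11+/+ and 295, 279 and 261 in Trim11+/- tumors. It was highest in Trim11+/+ tumor 1, where Irf7 was lowest of the Trim11+/+ tumors. All 7 had a log2 fold change below 0, and all but Csf1r overlapped between the genotypes. The sum of 6 markers of conventional dendritic cells was 5.86 to 6.85 against 2.95 to 6.03 FPKM. Clec9a of that list, below the limit for testing, was lower without overlap, at 0.306, 0.299 and 0.212 against 0.191, 0.173 and 0.0565 FPKM. The sum of 5 neutrophil markers was 17.9 to 37.4 against 17.7 to 20.3 FPKM, with Ly6g at 0 in all 6 tumors. S100a8 made up most of that sum and overlapped between the genotypes, at 10.2, 34.0 and 28.0 against 15.8, 18.2 and 17.6 FPKM. S100a9 was 5.43, 1.70 and 2.67 FPKM in Trim11+/+ and 0.517, 0.436 and 1.43 in Trim11+/- tumors and met the fold and p rule as lower (limma adjusted p = 0.635). Csf3r, the receptor of granulocyte colony-stimulating factor, did not overlap either, at 2.23, 1.64 and 1.63 against 1.32, 1.51 and 1.21 FPKM. Among T cell markers, Cd4 was lower without overlap, at 0.817, 0.951 and 0.791 against 0.491, 0.338 and 0.462 FPKM. Sums of 7 T cell markers (2.09 to 6.22 against 1.18 to 3.49) and of 5 B cell markers (0.138 to 0.958 against 0.131 to 0.575) overlapped between the genotypes. So did that of 5 markers of plasmacytoid dendritic cells, which are rich in Irf7 (0.352 to 4.38 against 0.639 to 4.58). Cox6a2 made up most of its high values, at 0.269, 3.04 and 3.96 FPKM against 3.57, 0 and 0.274. Cox6a2 was high in the same tumors as the skeletal muscle sum given below. Pacsin1, below the limit for testing, was higher without overlap in Trim11+/-, at 0.0561, 0.0904 and 0.0764 against 0.579, 0.505 and 0.385 FPKM. Siglech, Ccr9 and Klk1 overlapped and were at most 0.291 FPKM. Among stromal markers, the sum of 6 fibroblast markers was 163, 354 and 292 FPKM in Trim11+/+ and 254, 141 and 178 in Trim11+/- tumors, and that of 5 endothelial markers was 11.5, 17.4 and 17.9 against 16.0, 15.7 and 9.66. The sum of 4 adipocyte markers was 8.36, 66.6 and 14.8 against 51.0, 27.5 and 3.5 FPKM, and that of 5 skeletal muscle markers was 22.0, 105 and 227 against 272, 1.78 and 2.26. All 4 overlapped between the genotypes, with Trim11+/+ tumor 2 highest for fibroblast and adipocyte markers and Trim11+/- tumor 3 lowest for endothelial and adipocyte markers. Epithelial markers summed to 1433 to 1835 FPKM in Trim11+/+ and 1379 to 1875 in Trim11+/- tumors. The part of any of these cells in the values of Irf7, Ddx58, Ifih1 and the interferon targets was not tested.

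**Figure D4:**
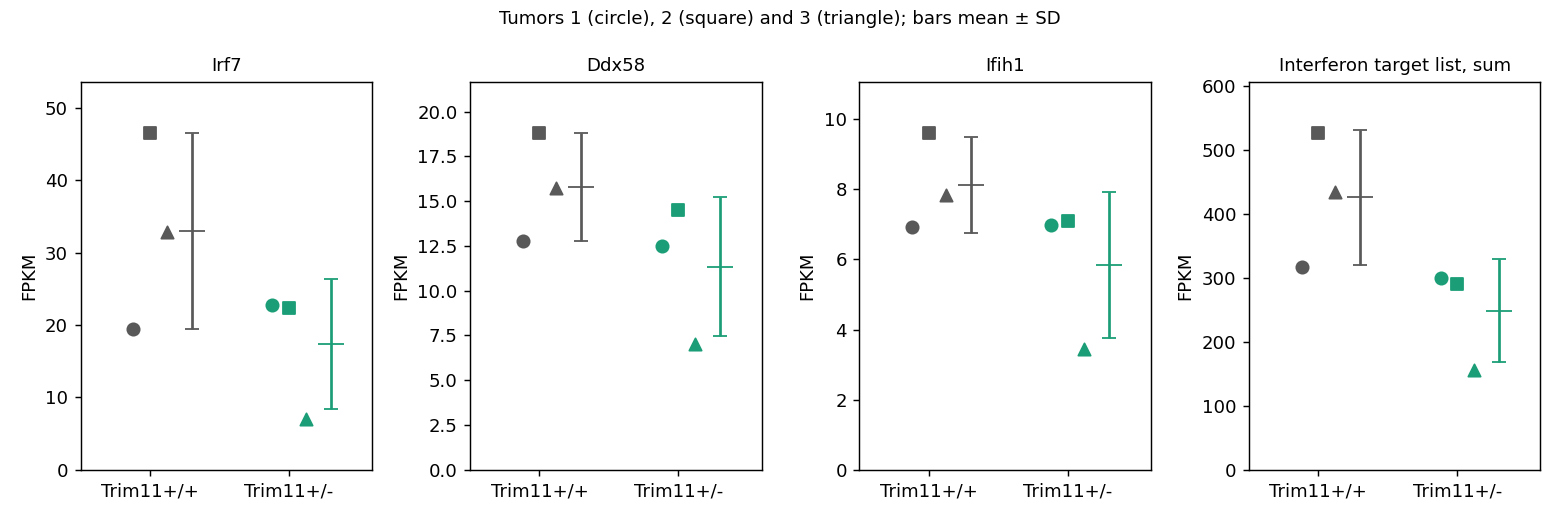
FPKM of Irf7, Ddx58 and Ifih1 and the summed FPKM of the interferon target list in each tumor, with circles, squares and triangles for tumors 1, 2 and 3 of a genotype and bars for the mean ± SD (n = 3). In all 4 panels the lowest point is Trim11+/- tumor 3 and the highest Trim11+/+ tumor 2.

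The genes most like Irf7 and IRF7 were found by Pearson correlation of FPKM among genes with a mean of at least 5, as a description without a test. Across the 6 tumors, among 9490 genes, they were Rab11a (r = 0.993), Lgals3bp (0.992), Tanc1 (0.989), Parp14 (0.986) and Ddx58 (0.985). Parp14 was 7.24, 12.4 and 10.3 FPKM in Trim11+/+ and 6.96, 7.28 and 3.91 in Trim11+/- tumors, with the same lowest tumor and the same highest pair as Irf7. Across the 7 lines, among 8791 genes, they were AMZ2 (r = 0.957), FAM134C (0.943), XPC (0.929), APOPT1 (0.928) and HM13 (0.927). No gene was in both lists. With so few libraries, which share their depth and handling, high correlations are found for some of so many genes.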

How the data were processed

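RNA was measured by poly(A) RNA-Seq of non-directional libraries. After trimming, the authors aligned reads with HISAT2 2.1.0 to hg19 or mm10 and deposited 1 FPKM value per gene and library, which their methods credit to Cufflinks. The submitters' processing notes also name Bowtie 0.12.2 and mm8, without a role. The deposited FPKM were checked against gene lengths, and for 98.7 to 98.8% of genes in a tumor they were whole reads within a tolerance of 0.01 (up to 1000 reads), which gave library totals of 8793199 to 11117125. Depth of the lines was estimated relative to Control from ratios of low values.

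For symbols with several rows the row with the highest mean was kept, and 25 human symbols turned into dates were left out. In R 4.3.3, limma 3.58.1 (lmFit, eBayes with a trend) was run on log2(FPKM + 1) of all genes whose mean FPKM reached 0.5, which were 17328 in tumors and 12636 in lines (12633 over the 6 knockdown lines), with Benjamini-Hochberg adjustment. The scale understates changes of low genes. Knockdowns were compared over 6 libraries, and an additive model of both guides, and their interaction, over 7. Single values were compared by exact permutation tests (two-sided). The fit was tested on simulated data. Python 3.11.15 with numpy 2.4.6, pandas 2.3.3, scipy 1.17.1 and matplotlib 3.10.9 did the rest. Positions come from GENCODE annotation of hg19 and mm10 and promoters from RefSeq. In the human table TRIM25, TREX1 and PCBP2 share an entry with other genes and were not used.

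The members and the lists were chosen with earlier results of these data known. Named genes were all members, the targeted genes, other list genes that met the call rule with a mean FPKM of at least 1 (up to 15 in a comparison, by size), and the 5 most like Irf7 or IRF7. CXCL10, IFNL1, Ifi27, Cd4, Clec9a, S100a8, S100a9, Csf3r, Csf1r, Cox6a2, Pacsin1, Siglech, Ccr9 and Klk1 were named after their values were seen. Same-numbered libraries deviated together with correlations of -0.33 to 0.0385 in tumors and of 0.088 to 0.371 in lines, where TRIM11-KD and DKD of one number share a TRIM11 guide. Some list genes are not reported here.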

Additional observations from a re-analysis of the deposited data

How the results depend on the processing

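Under every alternative run, no member passed an adjusted p of 0.05 in tumors or lines and none met the fold and p rule in tumors. The settings were a pseudocount of 0.1 or 0.5, a limit on mean FPKM of 1 or none, median ratio scaling, equal total FPKM, no trend, a fold of 2, the replicate block, Control in the fit, Control left out, only the groups compared, and each library left out. 2 alternatives were added after the data were seen, voom on the recovered whole reads and the lines without TRIM11-KD1 and DKD1. With the replicate number as a replicate block, 0 members were called in each comparison, with 289 higher and 284 lower genes in tumors by the fold and p rule. The numbers do not pair the tumors, and the tumors did not correlate best with their own number. The counts against Control depended on the lines. At a fold of 2 no member (0) was higher in DKD. By the mean of both lines 2 members were lower in KDM5C-KD, DDX58 and TMEM173, and 2 were higher in DKD, IKBKE and IFIH1. With each line alone, 0 to 2 members were lower in KDM5C-KD, 1 to 2 higher and 0 to 1 lower in DKD, and the median log2 ratio of the members in DKD was 0.065 to 0.24. The cause of these moves was not tested.

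FPKM values of the lines come with no read numbers, so counting error was given only for TLR3, from estimated fragments. With 3 tumors against 3 no exact p can be under 0.1, and with 4 lines against 3 none under 0.0571. Control and each guide combination are single libraries, and all 3 knockdowns share Control. Both DKD lines and KDM5C-KD2 share a KDM5C guide, so effects of that guide and of KDM5C cannot be told apart there.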
